A study of Mus musculus with 3 samples.

Results

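Lung pericytes were taken here as the barcodes with at least 1 UMI (unique molecular identifier, 1 counted transcript) in at least 5 of 10 genes: Trpc6, Pdgfrb, Gucy1a1, Gucy1b1, Postn, Cspg4, Notch3, Adcy8, Pde5a and Higd1b. This rule held for 1057 of 28589 barcodes. They were 554 of 11934 barcodes of the cell library (4.64%, exact binomial 95% interval 4.27 to 5.04%), 296 of 6849 in nucleus replicate 1 (4.32%, 3.85 to 4.83%) and 207 of 9806 in nucleus replicate 2 (2.11%, 1.84 to 2.42%). The study compared 2 ways of preparing lung of wild type C57Bl/6J mice for droplet (10x Chromium) RNA sequencing, with 1 library of whole cells and 2 of nuclei. Cells were freed from fresh lung with collagenase and DNAse and cleaned on a density gradient, whereas nuclei were released in lysis buffer from snap-frozen lung of adult mice and filtered. Preparation and fresh or frozen tissue thus changed together, and their effects cannot be told apart. The labels name no separate animals, so p-values reflect differences among these libraries, possibly technical ones. In all, the pericyte-rule barcodes held 1766830, 1204352 and 481098 UMIs in cells and nucleus replicates 1 and 2, so values from nucleus replicate 2 are the least precise.

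Pericytes lie in the basement membrane of capillaries, in contact with the endothelium that recruits and keeps them through PDGF-B and its receptor Pdgfrb. They share with smooth muscle a relaxing pathway, in which nitric oxide binds soluble guanylate cyclase, cyclic GMP rises and the phosphodiesterase Pde5a degrades it, and Notch3 is the Notch receptor of mural cells. The rule genes include both subunits of that cyclase (Gucy1a1 and Gucy1b1), the cation channel Trpc6, the calcium-stimulated adenylyl cyclase Adcy8, the matricellular protein periostin (Postn), the NG2 proteoglycan (Cspg4) and the mitochondrial inner membrane protein Higd1b.

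Gucy1a1 and Gucy1b1 are neighbours on chromosome 3 (mm10, GENCODE M21), on the same strand with 17737 bp between them. RefSeq promoter windows (GRCm38.p6, 250 bases before to 50 after a start) were given for 7 of the 10 rule genes in 9 entries. They were searched on both strands for TGGGAA, the core of the binding motif of RBPJ, the DNA-binding partner of Notch, for CATTCC (TEAD), for TCCC followed after any 2 bases by GGGA (EBF) and for the CArG box of serum response factor, and no match of 1 motif overlapped another. The 4 windows below are shown because they hold the matches, with matched letters in capitals (TTCCCA is TGGGAA on the other strand).
Gucy1a1, the more downstream of 2 starts, chr3:82145024-82145323, minus strand: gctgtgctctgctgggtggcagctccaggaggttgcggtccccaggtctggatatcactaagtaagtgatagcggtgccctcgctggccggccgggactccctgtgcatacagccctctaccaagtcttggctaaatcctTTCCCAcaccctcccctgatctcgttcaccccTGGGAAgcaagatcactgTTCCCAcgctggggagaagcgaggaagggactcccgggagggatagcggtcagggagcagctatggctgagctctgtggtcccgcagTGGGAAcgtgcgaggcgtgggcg
Gucy1b1, chr3:82074662-82074961, minus strand: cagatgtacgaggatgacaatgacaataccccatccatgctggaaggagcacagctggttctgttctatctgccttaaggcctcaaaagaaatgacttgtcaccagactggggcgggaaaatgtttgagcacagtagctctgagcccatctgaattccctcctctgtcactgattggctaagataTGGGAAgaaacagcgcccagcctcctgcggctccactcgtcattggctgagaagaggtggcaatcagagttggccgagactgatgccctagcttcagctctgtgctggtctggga
Pde5a, chr3:122728908-122729207, plus strand: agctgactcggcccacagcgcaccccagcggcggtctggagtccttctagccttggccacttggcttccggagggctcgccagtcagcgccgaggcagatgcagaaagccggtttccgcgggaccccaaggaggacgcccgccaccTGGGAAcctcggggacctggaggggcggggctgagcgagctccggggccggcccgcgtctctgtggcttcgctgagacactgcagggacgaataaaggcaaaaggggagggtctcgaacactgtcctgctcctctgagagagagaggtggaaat
Trpc6, chr9:8543892-8544191, plus strand, with the CArG box in capitals: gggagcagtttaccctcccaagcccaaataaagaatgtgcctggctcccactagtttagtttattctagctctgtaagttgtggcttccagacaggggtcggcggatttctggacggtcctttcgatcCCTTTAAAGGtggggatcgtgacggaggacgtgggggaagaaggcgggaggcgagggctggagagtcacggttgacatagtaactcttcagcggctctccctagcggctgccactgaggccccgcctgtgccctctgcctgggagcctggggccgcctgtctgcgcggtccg
TGGGAA was found in 3 of the 9 entries, 4 times in the Gucy1a1 window and 1 time each in those of Gucy1b1 and Pde5a, and 25.6% of 32851 RefSeq promoter windows of the same length hold it. The CArG box was found in the Trpc6 window and in 1.63% of all windows. CATTCC and the EBF motif, in 14.7% and 0.904% of all windows, had no match in the 9 entries. These matches describe letters in the windows and were not tested for binding.

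The label was checked against markers the rule did not use. Of 10 other pericyte markers, 3 or more had a UMI in 48.9% of pericyte-rule cells (44.7 to 53.2%) and in 50% (44.2 to 55.8%) and 16.4% (11.7 to 22.2%) of pericyte-rule nuclei. Among B-cell-rule barcodes, which share Ebf1 with the list but should lack most of the others, the share was 3.17%, 3.39% and 0.621%. Their summed level was 2064 CPM (UMI counts scaled to a library sum of 1000000) in pericyte-rule cells against 552 in all other cells, and 4452 and 3772 against 322 and 279.9 in the nucleus libraries. Most of it came from Ebf1, an early B-cell factor family transcription factor also used in B cells, at 1251, 3844 and 3350 CPM. B-cell-rule nuclei had 5653 and 4231 CPM of Ebf1, above the pericyte-rule nuclei. Cox4i2, a hypoxia-linked cytochrome oxidase subunit of mural cells, stood at 378, 286 and 245 CPM. Kcnj8, Abcc9 and Rgs5, which mark pericytes in other organs, were low. They stood at 5.66, 0.830 and 0 CPM, at 10.2, 19.9 and 2.08 CPM and at 9.06, 1.66 and 6.24 CPM. Abcc9 and Ednrb were higher in barcodes of the smooth muscle rule (a list of smooth muscle and myofibroblast markers), as was Mcam in nuclei. Abcc9 stood at 154, 136 and 109 CPM in those barcodes. Ednrb, named below among aerocyte genes, stood at 82.7, 19.1 and 22.9 CPM against 113, 36.6 and 21.3 CPM in other barcodes. It had a UMI in 14.1% of pericyte-rule cells, so it counts toward the share of 48.9%.

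The pericyte-rule barcodes of the cell library also carried the transcripts of endothelial cells. Of 10 endothelial markers (Pecam1, Cdh5, Cldn5, Kdr, Tie1, Ptprb, Calcrl, Egfl7, Emcn and Tek), 5 or more had a UMI in 413 of 554 pericyte-rule cells (74.5%, 70.7 to 78.1%), against 16 of 296 (5.41%, 3.12 to 8.63%) and 22 of 207 (10.6%, 6.78 to 15.6%) pericyte-rule nuclei. In the same cell library the share was 35.2% for the alveolar fibroblast rule and 20.4% for the B cell rule, at median depths of 3148 UMIs for pericyte-rule cells, 3068 for fibroblasts and 2925.5 for B cells. With every barcode thinned to 1000 UMIs, it was 33.9% of pericyte-rule cells, 10.7% of fibroblasts, 6.11% of B cells and 60.2% of cells that met the endothelial rule. The summed level of the 10 markers was 6129 CPM in pericyte-rule cells, above the 3931 CPM of all other cells, and 1087 and 1616 CPM in pericyte-rule nuclei. Fewer than 3 of them were seen in 64 pericyte-rule cells and in 207 and 161 pericyte-rule nuclei. These barcodes are called endothelial-poor below, a limit set after the data were seen, and counts of calls between cells and nuclei are also given for them. No doublet caller was run.

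**Figure D1:**
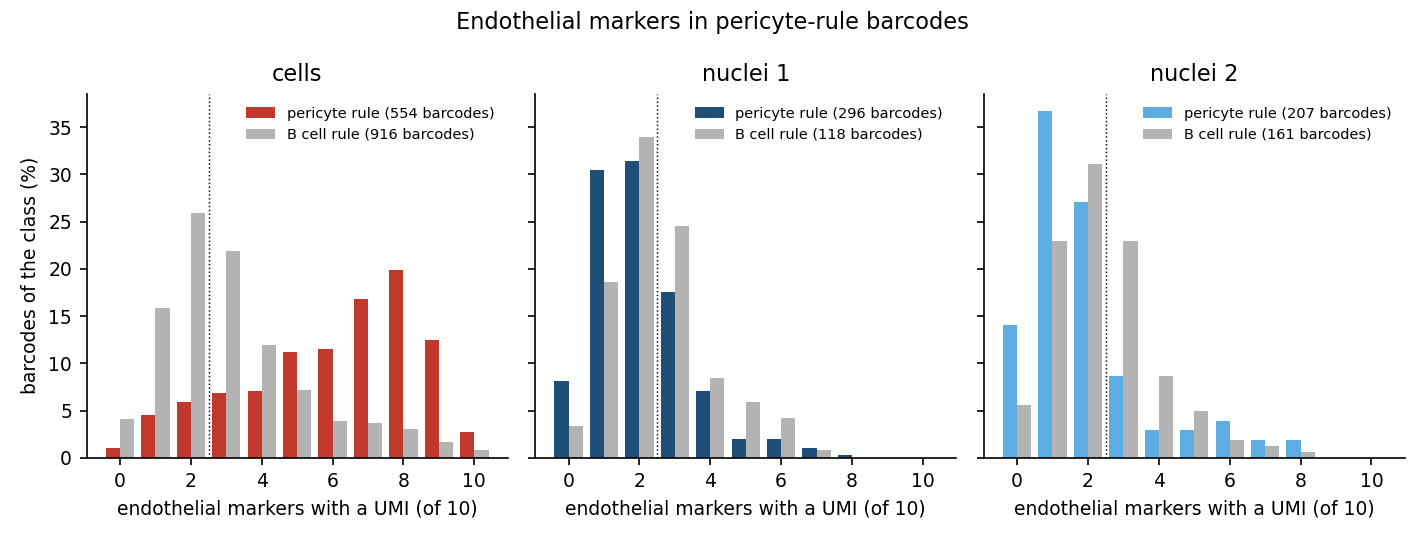
Share of barcodes (y axis, percent of the class) by the number of 10 endothelial markers with a UMI (x axis), for pericyte-rule barcodes (coloured) and B-cell-rule barcodes (grey) of each library; the dotted line separates the endothelial-poor barcodes (under 3) from the rest. Pericyte-rule cells have a median of 7 markers, against 2 and 1 in the pericyte-rule nuclei and 3 in B-cell-rule cells.

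Levels of 9 capillary genes, chosen after the data were seen, are given without a test for the pericyte-rule cells with 5 or more endothelial markers. Among genes of general capillaries, Gpihbp1, the capillary anchor of lipoprotein lipase, stood at 224 CPM against 222 in endothelial-rule cells, Plvap at 179 against 190.5, Sema3c at 1423 against 1649 and Lyve1 at 112 against 147. Among genes of the aerocyte, the gas-exchange capillary cell, Car4 stood at 132 CPM against 245, Ednrb at 102 against 277, Apln at 39.7 against 69.2, Tmeff2 at 59.5 against 214 and Fibin at 47.0 against 77.1. In the 64 endothelial-poor cells, Gpihbp1 stood at 55.3 CPM and Sema3c at 232 CPM, a comparison that the split itself bears on.

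Markers of other cells were present as well. At least 3 of 10 alveolar fibroblast markers were seen in 46.8% of pericyte-rule cells (42.5 to 51.0%), 27.7% (22.7 to 33.2%) and 21.3% (15.9 to 27.5%) of pericyte-rule nuclei, at 1931, 791 and 1204 CPM in all, against 1328, 2431 and 3426 CPM in other barcodes. Immune markers came to 2398 CPM in pericyte-rule cells and 257 and 605 CPM in nuclei, below other barcodes in each library. At least 3 of 10 immune markers were seen in 55.8% of pericyte-rule cells and in 3.38% and 6.28% of the nuclei. Epithelial markers, such as Sftpc and Ager, came to 2644, 3285 and 4953 CPM, against 3738, 5950 and 7044 CPM in other barcodes. At least 3 of these 10 were seen in 26.7% of pericyte-rule cells and in 74.0% and 69.6% of the nuclei. Airway epithelial markers came to 16589 and 19606 CPM in pericyte-rule nuclei, near the 16394 and 18105 CPM of other nuclei, and to 1098 CPM in pericyte-rule cells. Smooth muscle markers came to 337, 830 and 651 CPM in pericyte-rule cells and nuclei, above the 92.9, 174 and 89.5 CPM of other barcodes. At least 3 of the 10 were seen in 4.51%, 11.8% and 7.73% of the pericyte-rule barcodes. Myh11, smooth muscle myosin, was seen in 26.9%, 63.2% and 38.2% of them, against 1.53%, 1.69% and 0.621% of B-cell-rule barcodes, and Acta2, smooth muscle actin, in 8.48%, 14.5% and 7.73%, against 0.655%, 6.78% and 3.11%. Sox10 of Schwann cells had no UMI in pericyte-rule barcodes of any library, and at least 3 of 6 cycling markers were seen in 1 cell and no nucleus. The libraries shared 21, 24 and 21 barcode sequences pairwise, of which 1 met the rule in both cells and nucleus replicate 1.

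Clustering each library without the 10 rule genes placed most pericyte-rule barcodes together. In cells, 1 cluster of 526 held 460 of the 554 (83.0%). In nucleus replicate 1, 271 of the 274 barcodes of 1 cluster met the rule, 91.6% of all that did, and in nucleus replicate 2 1 cluster of 219 held 194 (93.7%). The cell cluster had a median of 7 endothelial markers per barcode and the nucleus clusters 2 and 1. Outside these clusters, 21 pericyte-rule nuclei of replicate 1 (7.09%) lay in 1 other cluster of 134 nuclei.

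The rule chose barcodes by the 10 genes, so their levels are given without a test. Trpc6, which conducts calcium and sodium after phospholipase C signalling, stood at 888 CPM in pericyte-rule cells and at 4324 and 3098 CPM in the nuclei of replicates 1 and 2. It was 4.18-fold higher in the mean of the nuclei, and both nucleus libraries lay above the cells. Adcy8, which couples calcium to cyclic AMP, stood at 797, 3222 and 3289 CPM, 4.09-fold higher in nuclei. These were also the genes that separated the rule from all other barcodes most sharply, with 93.4, 382 and 212-fold for Trpc6 and 82.3, 367 and 217-fold for Adcy8.

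The guanylate cyclase pathway was high in every library. Gucy1a1 stood at 969.9, 2316 and 1863 CPM and Gucy1b1 at 812, 1516 and 983 CPM, 2.15 and 1.54-fold higher in nuclei. Pde5a was the highest of the 10 in cells, at 2249 CPM, and stood at 3436 and 4052 CPM in nuclei. Barcodes of the alveolar fibroblast rule had 158, 134 and 174 CPM of Pde5a. Pde5a had a UMI in 97.5%, 98.6% and 98.1% of pericyte-rule barcodes, and in 13.4%, 5.93% and 5.59% of B-cell-rule barcodes, where free RNA is the background.

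Of the receptors, Pdgfrb stood at 402 CPM in cells and 521 and 593 CPM in nuclei. Its level in the endothelial-poor cells was 592 CPM, against 514 and 636 CPM in such nuclei, so that the order of cells and nuclei seen in all pericyte-rule barcodes was not kept. Notch3 stood at 406, 864 and 765 CPM, 2.01-fold higher in nuclei. Cspg4 was the rarest of the 10 in cells, at 72.5 CPM (exact Poisson 95% interval 60.5 to 86.2, counting error only), 86.4 (70.6 to 104.6) and 66.5 CPM (45.5 to 93.9), and these intervals overlap.

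Postn and Higd1b were the 2 rule genes with more counts in cells. Postn stood at 749 CPM in cells and 288 and 393 CPM in nuclei, 2.20-fold higher in cells. Higd1b stood at 289 CPM in cells against 20.8 and 22.9 CPM in nuclei, 13.3-fold higher in cells, and in the endothelial-poor barcodes 14.6-fold. Higd1b had a UMI in 53.4% of pericyte-rule cells, but in 8.11% and 4.35% of the nuclei, so it contributed little to the choice of nuclei. It is the shortest of the 10 genes, at 2.19 kb, whereas Trpc6 spans 137 kb and Adcy8 225 kb.

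**Figure D2:**
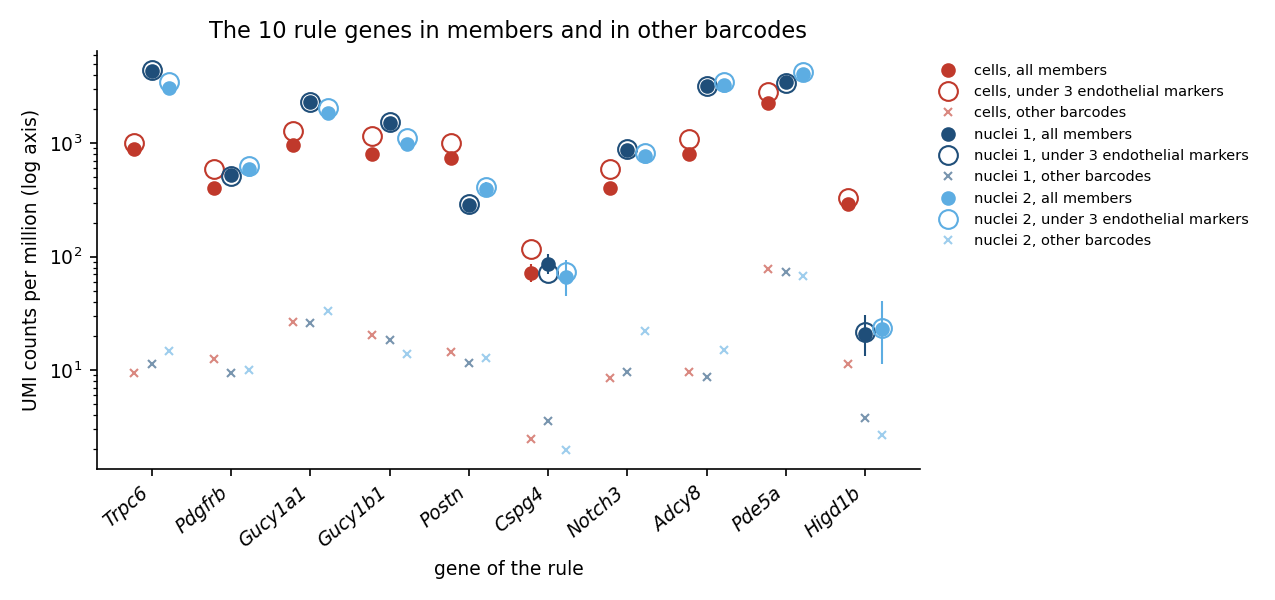
Level of each rule gene (y axis, CPM on a log axis) in all pericyte-rule barcodes (filled, with exact Poisson 95% intervals), in endothelial-poor ones (open circles) and in all other barcodes (crosses) of the 3 libraries. Higd1b is the one gene with cells far above nuclei (289 against 20.8 and 22.9 CPM), and Trpc6 and Adcy8 show the widest gap the other way.

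Just outside the rule, 99 cells and 24 and 28 nuclei had 4 of the genes, and just inside, 98 cells and 19 and 32 nuclei had 5. The summed level of the 10 other pericyte markers was 949 CPM at 4 genes and 1269 CPM at 5 in cells. It was 2036 and 2087 CPM in nucleus replicate 1 and 1429 and 3234 CPM in nucleus replicate 2. At 3 genes it was 879, 728 and 269 CPM, and at 6 genes 1405, 4091 and 3509 CPM. With all barcodes thinned to 1000 UMIs, 2.11% of cells and 3.54% and 1.64% of nuclei met the rule, and nucleus replicate 1 then lay above the cells.

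Outside the rule, 41 genes were at least 10-fold higher in pericyte-rule barcodes than in the other barcodes of every library, among 2742 genes with at least 50 CPM in the pericyte-rule barcodes of each. Of the 20 genes with the highest smallest fold, 19 are described here by role, without a test, since barcodes were chosen by expression. Kcnq5, a voltage-gated potassium channel, was the most abundant of the 20, at 3877, 17347 and 9739 CPM in cells and nucleus replicates 1 and 2, which was 21.7, 163 and 85.9-fold above other barcodes. B-cell-rule barcodes held it too, at 512, 1268 and 878 CPM, with a UMI in 60.3%, 71.2% and 54.7% of them. Gucy1a2, the other alpha subunit of guanylate cyclase, stood at 378, 1991 and 1356 CPM, and Agtr1a, the angiotensin II receptor, at 101, 513 and 247 CPM, 27.7 to 133-fold above other barcodes.

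Several of the 20 code for adhesion molecules. Ntm, a membrane-anchored immunoglobulin protein first known from neurons, stood at 118, 497 and 499 CPM, 61.9, 342 and 87.5-fold above other barcodes. Clstn2, a cadherin-family calsyntenin, stood at 588, 1996 and 1826 CPM. Cdh2, the N-cadherin of contacts between pericytes and endothelium, stood at 114, 301 and 249 CPM, and the protocadherin Pcdh19 at 123, 233 and 146 CPM. Pcdh18 was the one gene of the 20 with more counts in cells, at 339 CPM against 85.5 and 104 CPM. Of the matrix, Col8a1, a short-chain collagen of vessels, stood at 181, 615 and 422 CPM and Ltbp2, a latent TGF-beta binding protein family member, at 289, 388 and 212 CPM.

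The highest smallest fold belonged to Gm32014, a long non-coding RNA at 81.5, 120 and 133 CPM, 68.0, 115 and 107-fold above other barcodes. Gm32014 (chr9:8644073-8740988, minus strand) overlaps Trpc6 (chr9:8544142-8680741, plus strand) by 36669 bp in mm10. Whether counting used strand is not given in the sources used here, so reads of the 2 genes may not be told apart. Tafa1, a secreted protein of the TAFA family, had 685, 2141 and 2609 CPM and Arhgap42, a GTPase-activating protein for RhoA in smooth muscle, 808, 4482 and 2826 CPM. The other 6 were Tmem200a, Vsnl1, Lrrc4c, Tmem178, Meg3 and Hunk. Without the barcodes rich in endothelial markers, 48 genes outside the rule passed the same limits among 2600.

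**Figure D3:**
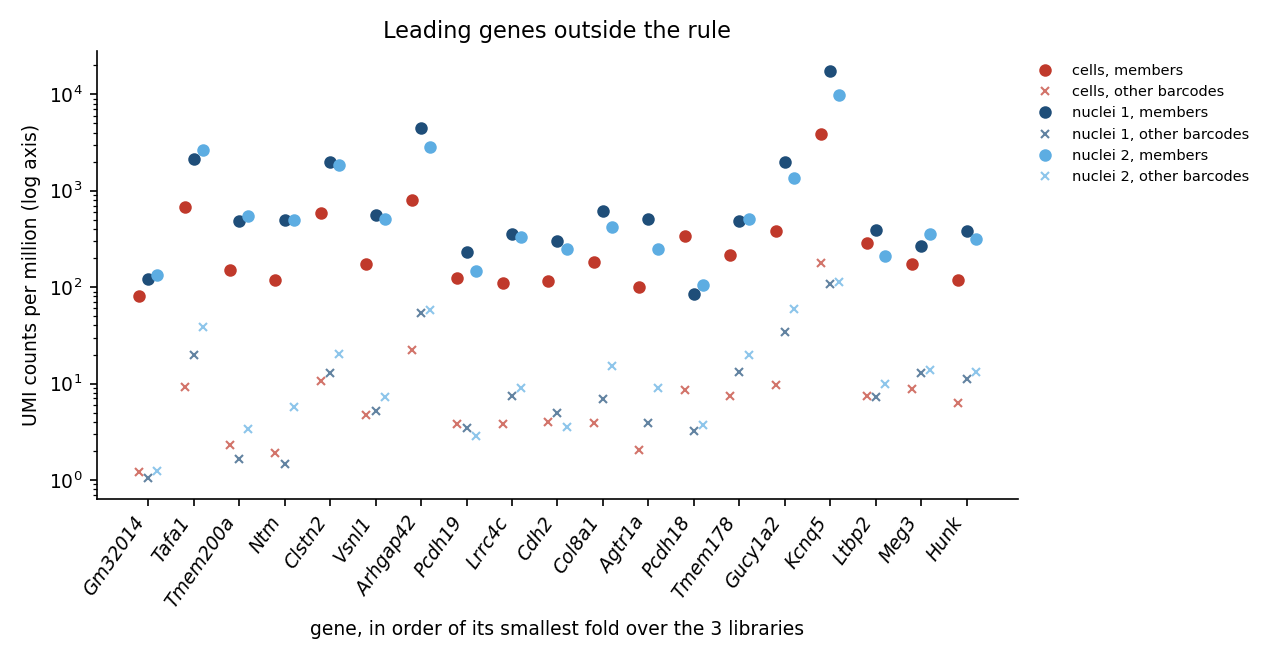
Level (y axis, CPM on a log axis) of 19 of the 20 leading genes outside the rule in pericyte-rule barcodes (dots) and in all other barcodes (crosses) of the 3 libraries, in order of their smallest fold. Dots lie 19.0 to 342-fold above the crosses of the same library, and nuclei lie above cells for most genes, with Pcdh18 the other way.

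Cells and nuclei were compared over the summed counts of the pericyte-rule barcodes of each library, 1 sum of cells against 2 of nuclei. Of 12080 genes tested with edgeR's quasi-likelihood test, 1685 (13.9%) were higher and 930 (7.7%) lower in cells at a Benjamini-Hochberg adjusted p under 0.05. The spread comes from the nucleus libraries alone, and DESeq2 called 474 (3.92%) and 243 (2.01%), 717 in all (5.94%) against 2615 (21.6%) by edgeR. In the endothelial-poor barcodes 772 of 7542 genes (10.2%) were higher and 334 (4.43%) lower. Counts of calls in each gene list below stand beside these shares over all genes for the same fit. Without barcodes that hold 3 or more markers of an endothelial, epithelial, airway or immune list, 18 cells and 8 and 12 nuclei were left, and 102 and 17 of 740 genes were called. The genes called in both fits, 930 in all, had the same direction in each and made up 35.6% of the calls over all pericyte-rule barcodes and 84.1% of the calls over the endothelial-poor ones. Genes higher in cells had a median length of 11.5 kb and genes lower in cells 78.4 kb, against 29.4 kb for all tested.

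Immediate early genes, the transcription factors and regulators induced fast and without new protein synthesis by many stimuli, made up 5 of the 10 largest rises in cells (Fosb, Egr1, Fos, Junb and Nr4a3). Of 34 tested, 32 rose (24 by DESeq2), none fell and the median log2 fold was 3.46 (3.42 with Egr3 at its bound), against 0.02 over all genes. In the endothelial-poor barcodes 26 of 30 rose with a median of 3.51. Egr1, a zinc finger factor, stood at 1612 CPM in pericyte-rule cells and 3.32 and 10.4 CPM in nuclei (log2 fold 8.04, SE 0.55, edgeR adjusted p = 1.5e-07). Fosb stood at 586 CPM in cells, with 2 counts in all pericyte-rule nuclei, and Fos at 682 CPM against 2.49 and 4.16 CPM (log2 fold 7.68). Junb stood at 1389 CPM against 10.8 and 6.24 CPM. Egr3 had no count in either nucleus library and 40.8 CPM in cells. The other 5 were Cxcl2, Il1b and Hspa1b, given below, Mep1a, a metalloprotease with no count in nuclei and 64.0 CPM in cells (at least 35.9-fold higher, with 102 CPM in endothelial-rule cells), and Iqcn, which DESeq2 did not call (adjusted p = 0.20). Cells of other kinds had these transcripts too. Egr1 stood at 1128 CPM in endothelial-rule cells and 402 CPM in B-cell-rule cells, and Fos and Fosb were likewise lower in both than in pericyte-rule cells. Junb stood at 1481 and 1950 CPM in those classes, above the pericyte-rule cells. Nr4a3 stood at 158 CPM in pericyte-rule cells, 131 CPM in endothelial-rule cells and 256 CPM in B-cell-rule cells.

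Of 15 heat shock genes tested, 11 rose in cells and none fell, with a median log2 fold of 1.92. By DESeq2 7 rose, and in the endothelial-poor barcodes 9 of 15. Over all genes 13.9% rose by edgeR, 3.92% by DESeq2 and 10.2% in the endothelial-poor barcodes. Hspa1b and Hspa1a, the inducible Hsp70 genes, stood at 142 and 130.2 CPM in cells and at most at 2.49 CPM in nuclei. As near-identical copies, they can share reads. The chaperone Hsp90ab1 stood at 803 CPM against 154 and 152 CPM. Of 16 inflammatory and adhesion genes 11 rose and 2 fell (7 and 0 by DESeq2), and 7 of 12 rose and none fell in the endothelial-poor barcodes. Cxcl2, a neutrophil chemokine, stood at 58.3 CPM in cells and had no count in nuclei, which puts it at least 32.8-fold higher in cells (against 3 counts over both nucleus libraries). Il1b stood at 132 CPM, with 1 count in all nuclei, and the NF-kappaB inhibitor Tnfaip3 at 114 CPM against 1.66 and 6.24 CPM. Il34, a ligand of the macrophage receptor Csf1r, was lower in cells, at 98.5 CPM against 768 and 191 (log2 fold -2.42, SE 0.66, edgeR adjusted p = 0.016, 0.081 in the endothelial-poor barcodes), and DESeq2 did not call it (adjusted p = 0.38). Immune markers also rose in pericyte-rule cells, 8 of 10 tested over all and 8 of 9 in the endothelial-poor barcodes. Their median log2 fold was 2.65 over all and 3.70 in the endothelial-poor barcodes. Cxcl2 and Il1b stood at 216 and 337 CPM in the endothelial-poor cells, above their levels over all pericyte-rule cells. The part of immune transcripts in the rise of Il1b and Cxcl2 was not tested.

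Of 25 calcium and ion channel genes none rose in cells and 7 fell (also 7 by DESeq2, not all of them the same), with a median log2 fold of -0.46. In the endothelial-poor barcodes 3 of 22 fell and 1 rose. Over all genes 13.9% rose and 7.7% fell by edgeR, 3.92% and 2.01% by DESeq2 and 10.2% and 4.43% in the endothelial-poor barcodes. Cacna1c, the pore of the L-type calcium channel, stood at 837 CPM in cells against 3587 and 3125 CPM in nuclei (log2 fold -2.08, SE 0.58, edgeR adjusted p = 0.018, 0.028 in the endothelial-poor barcodes). Ryr2, the calcium release channel of the sarcoplasmic reticulum, stood at 26.04 CPM against 122 and 102 (adjusted p = 0.0027, edgeR, then 0.18 in the endothelial-poor barcodes). Ano1, a calcium-activated chloride channel, stood at 9.06 against 37.4 and 79.0 CPM (0.0046, then 0.089), with 14.8 and 103 CPM in B-cell-rule nuclei. Kcnma1, the BK potassium channel, stood at 9.63 against 38.2 and 58.2 CPM (0.0080, then 0.044), and DESeq2 gave 0.091. The nuclei lay above the cells in both libraries for all 7. The 7 did not include Kcnq5 (log2 fold -1.90, SE 0.81, edgeR adjusted p = 0.10), which DESeq2 called (adjusted p = 0.0081).

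Of 27 genes of cyclic nucleotide signalling, 6 fell and 3 rose in cells (6 and 0 by DESeq2), with a median log2 fold of -0.70 and of -1.09 in the endothelial-poor barcodes, where 5 of 20 fell and 1 rose. Shares over all genes were 7.7% lower and 13.9% higher (2.01% and 3.92% by DESeq2), and 4.43% and 10.2% in the endothelial-poor barcodes. Gucy1a2 fell by 2.24 on the log2 scale (SE 0.54, edgeR adjusted p = 0.0079, 0.027 in the endothelial-poor barcodes). The phosphodiesterase Pde8b stood at 259 CPM in cells and 1067 and 1208 CPM in nuclei, and the adenylyl cyclases Adcy9 at 210.1 against 1011 and 751 CPM and Adcy2 at 367 against 2127 and 915 CPM. Adcy2 had an adjusted p of 0.061 in the endothelial-poor barcodes. The 3 that rose included Pde4b, a cyclic AMP phosphodiesterase, at 355 CPM against 70.6 and 160.1 CPM, which kept an adjusted p of 0.028 in the endothelial-poor barcodes. Adcy4, at 78.1 CPM against 13.3 and 16.6 CPM, was too rare there to be tested.

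Of 23 receptors for vasoactive agents and regulators of their signalling, 6 rose and 3 fell (3 and 1 by DESeq2), beside 13.9% higher and 7.7% lower over all genes. In the endothelial-poor barcodes 4 of 17 rose and none fell, beside 10.2% and 4.43% over all genes there. Agtr1a fell by 2.02 (SE 0.51, edgeR adjusted p = 0.010, 0.062 in the endothelial-poor barcodes). Ednra, the endothelin receptor of mural cells, stood at 199.9 CPM against 426 and 557 (adjusted p = 0.031, then 0.092). The thrombin receptor F2r rose, at 255 CPM against 91.4 and 70.7, as did the sphingosine-1-phosphate receptor S1pr3, at 109.8 against 19.9 and 20.8 CPM. Rgs2, which shortens signalling by receptors of the Gq class, had the largest change of the list, with 99.1 CPM in cells and 4.15 and 12.5 CPM in nuclei (log2 fold 3.72, SE 0.55, edgeR adjusted p = 0.00022). F2r, S1pr3, Rgs2 and Ppp1r14a were the 4 that rose in the endothelial-poor barcodes, with log2 folds of 1.87, 2.70, 4.48 and 2.06.

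Of 26 pericyte genes outside the rule, 5 rose and 5 fell in cells (3 and 3 by DESeq2), beside 13.9% and 7.7% over all genes (3.92% and 2.01%). In the endothelial-poor barcodes 3 of 22 rose and none fell, beside 10.2% and 4.43% over all genes there. Those 3 were Mfge8, a secreted bridge to apoptotic cells, at 454 CPM against 63.9 and 87.3 (log2 fold 2.54, SE 0.37, edgeR adjusted p = 0.00021), Ndufa4l2, a mitochondrial protein of hypoxic and mural cells, at 143 against 24.1 and 22.9, and Vtn, vitronectin, at 60.02 against 3.32 and 6.24 CPM. Lamc3, a laminin gamma chain, passed the test as lower in cells, but its nucleus libraries stood at 131 and 10.4 CPM, cells at 5.10 CPM, and DESeq2 gave an adjusted p of 0.32. Cox4i2, Mcam and Kcnk3 had log2 folds of 0.43, -0.03 and 0.06, none past the test. Gja4, the connexin of arterial endothelium and mural cells, rose by 2.07 over all pericyte-rule barcodes, but had an adjusted p of 0.41 in the endothelial-poor ones.

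Of 27 contractile genes 4 rose and 4 fell (1 and 0 by DESeq2), beside 13.9% and 7.7% over all genes. In the endothelial-poor barcodes 1 of 24 rose and none fell, beside 10.2% and 4.43% over all genes there. The 1 was Myl6, a myosin light chain (629 CPM against 137 and 197.5). Myh11 stood at 144 CPM against 405 and 291 CPM (edgeR adjusted p = 0.033, then 0.20). Of 43 genes of basement membrane and matrix 5 rose and 7 fell, beside the same 13.9% and 7.7%. DESeq2 called 1 and 3, beside 3.92% and 2.01% over all genes. In the endothelial-poor barcodes 5 of 39 rose and 3 fell, beside 10.2% and 4.43% over all genes there. Bgn, the proteoglycan biglycan, stood at 470.5 CPM against 105 and 85.2 CPM (log2 fold 2.21, SE 0.38, edgeR adjusted p = 0.00068, 0.0043 in the endothelial-poor barcodes). The laminin alpha chains Lama2 and Lama4 fell by 1.89 and 1.65, with adjusted p of 0.027 and 0.055 in the endothelial-poor barcodes. The basement membrane collagens Col4a4, Col4a5 and Col4a6 were among those that fell, at no more than 16.4 CPM in cells (log2 folds -2.54, -2.37 and -2.64). In the endothelial-poor barcodes their log2 folds were -3.94, -1.71 and -2.17, with edgeR adjusted p of 0.070, 0.11 and 0.12. The cell sum there was shallower, with 180936 UMIs in 64 cells. B-cell-rule nuclei of replicate 2 held 379, 226 and 83.1 CPM of the 3, above the 135, 125 and 58.2 CPM of pericyte-rule nuclei there. Of 31 mesenchymal transcription factors 2 rose and 3 fell (0 and 2 by DESeq2), beside 13.9% and 7.7% over all genes (3.92% and 2.01% by DESeq2). Foxp2, a forkhead factor, stood at 10.8 CPM against 49.0 and 125 CPM (log2 fold -2.99, SE 0.58, edgeR adjusted p = 0.0017), with 29.6 and 153 CPM in B-cell-rule nuclei. Foxp2 and Tshz3 were the 2 of 29 that fell in the endothelial-poor barcodes, where none rose, and Ebf2, at 3.40 CPM against 40.7 and 10.4 CPM, had an adjusted p of 0.13 there.

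Of 40 genes of signalling between endothelium and pericytes, 18 rose and 2 fell in pericyte-rule cells (8 and 0 by DESeq2), beside 13.9% and 7.7% over all genes (3.92% and 2.01%). The median log2 fold was 0.69. In the endothelial-poor barcodes 4 of 27 rose and none fell, beside 10.2% and 4.43% over all genes there, and the median was 0.17. The list holds Kdr and Tek, which the split itself uses. Flt1 and Kdr, VEGF receptors of endothelium, stood at 713 and 364 CPM in cells, with log2 folds of 1.93 and 2.66 that became 0.11 and 0.15 in the endothelial-poor barcodes. Pdgfb, the endothelial ligand of Pdgfrb, stood at 108 CPM in cells against 9.97 and 24.9 CPM and was too rare in the endothelial-poor barcodes to be tested. Tgfb1, at 144 CPM against 19.1 and 41.6, and the Notch target Hes1, at 131 against 31.6 and 52.0 CPM, rose in both fits. All 10 endothelial markers rose over all pericyte-rule barcodes (median log2 fold 2.33), and none of the 8 tested in the endothelial-poor ones, where this split itself lowers them.

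**Figure D4:**
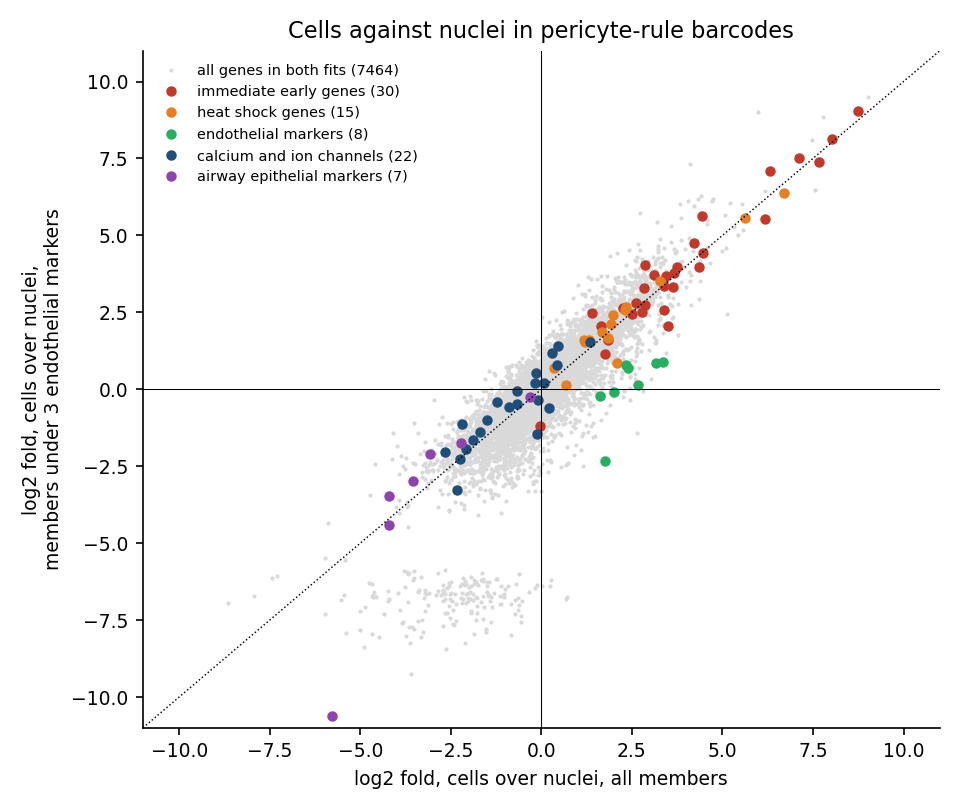
Log2 fold of cells over nuclei in all pericyte-rule barcodes (x axis) and in the endothelial-poor ones (y axis) for the genes in both fits (grey) and 5 marked lists; the dotted line is equality. Immediate early genes lie near the line (medians 3.46 and 3.51), endothelial markers fall below it, and the separate grey band at the bottom holds genes with no or few counts in the 64 endothelial-poor cells, whose fold depends on the prior count.

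The 10 largest falls in cells included 3 genes of the airway marker list, Cyp2f2, Dnah12 and Scgb1a1. Scgb1a1, the club cell secretoglobin, stood at 959 CPM in pericyte-rule cells and 15685 and 18137 CPM in pericyte-rule nuclei, and at 22664 and 22662 CPM in B-cell-rule nuclei. Cyp2f2, a club cell cytochrome, stood at 8.49 CPM against 299.8 and 620 CPM, and at 378 and 705 CPM in B-cell-rule nuclei. Dnah12, an axonemal dynein, and Rgs22 likewise had 91.6 and 203 CPM and 38.4 and 113 CPM in B-cell-rule nuclei, near or above the pericyte-rule nuclei, and Bmpr1b stood at 26.6 and 162 CPM in pericyte-rule nuclei and 26.6 and 156 CPM in B-cell-rule nuclei. Grip1, a scaffold of PDZ domains, stood at 2.83 CPM in cells and 33.2 and 149.7 CPM in nuclei, and Wdr17 at 3.40 against 35.7 and 127 CPM, with 29.6 and 319 CPM and 62.1 and 402 CPM in B-cell-rule nuclei. Kifc3, a minus-end kinesin, was higher in pericyte-rule nuclei (105 and 27.03 CPM) than in B-cell-rule nuclei (2.96 and 16.6), with 3 counts in pericyte-rule cells. Hif3a, a hypoxia-inducible factor, stood at 3.96 CPM in cells against 174 and 10.4 CPM, and DESeq2 did not call it (adjusted p = 0.26).

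Whether the effect of preparation differed between mesenchymal classes was tested as an interaction over library sums of each class. The classes were the pericyte rule, the alveolar fibroblast rule (1009 cells, 774 and 967 nuclei) and the smooth muscle rule (22 cells, 37 and 10 nuclei). The list of the smooth muscle rule was drawn up for smooth muscle and myofibroblasts, with Hhip and Aspn among its genes. Whether their mix differed between cells and nuclei was not tested. Against fibroblasts the log2 fold of pericyte-rule barcodes was higher for 63 (0.448%) and lower for 90 (0.64%) of 14067 genes, 1.09% in all. DESeq2 called 3 and 11, and in the endothelial-poor barcodes edgeR called 10 and 31. Lef1, a Wnt pathway transcription factor, had the most negative difference. It stood at 267 CPM in pericyte-rule cells against 821 and 482 CPM in the nuclei, but at 111 CPM in fibroblast cells against 10.4 and 17.1 CPM in fibroblast nuclei (difference -4.30, SE 0.53, edgeR adjusted p = 5.8e-12, in the endothelial-poor barcodes -4.82). DESeq2 gave Lef1 an adjusted p of 0.025. Aff2, a nuclear speckle protein, stood at 454, 1392 and 1208 CPM in the pericyte rule and 78.2, 19.0 and 26.7 CPM in fibroblasts. Lmod1, leiomodin, an actin nucleator of smooth muscle, stood at 23.2, 107 and 47.8 CPM against 13.4, 3.02 and 3.81 CPM. In these 3 genes the fibroblast cells lay above both fibroblast nucleus libraries and the pericyte-rule cells below both of theirs. Lmod1 is also a smooth muscle marker, and barcodes that met the smooth muscle rule were kept out of the fibroblast class, which bears on its level there.

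Of the differences the other way, that of Ighg2c, an immunoglobulin chain, was the highest, at 2.85, with 225 CPM in pericyte-rule cells, 5.53 CPM in the endothelial-poor ones and 29.4 CPM in fibroblast cells. Pdgfra, the PDGF receptor of fibroblasts, stood at 99.1 CPM in pericyte-rule cells against 16.6 and 27.03 CPM in nuclei, and at 477, 693 and 528 CPM in fibroblasts (difference 2.61, SE 0.55, edgeR adjusted p = 0.0010, 0.076 in the endothelial-poor barcodes). Spon1, a secreted matrix protein, and the cadherin Cdh11 had differences of 2.75 and 2.48. Beside these stand the alveolar fibroblast markers, which were higher in pericyte-rule cells than nuclei for 4 of 10 genes and lower for 1. Over all genes the shares were 13.9% and 7.7%. DESeq2 called 2 higher and 0 lower, beside 3.92% and 2.01% over all genes. In the endothelial-poor barcodes 2 of 9 were higher and none lower, beside 10.2% and 4.43%. The part of these markers in the result was not tested. Against smooth muscle the log2 fold of pericyte-rule barcodes was higher for 33 (0.235%) and lower for 11 genes (0.0782%), 0.313% in all. DESeq2 called 4 and 4, and in the endothelial-poor barcodes 9 and 1 were called, from sums as small as 8 nuclei and 5 cells. Itga8, an integrin alpha chain, stood at 129, 109.6 and 116 CPM in the pericyte rule and at 103, 1810.1 and 1067 CPM in smooth muscle (difference 4.30, SE 0.72, edgeR adjusted p = 6.9e-06, 0.033 in the endothelial-poor barcodes). Itga8 is also 1 of the 10 alveolar fibroblast markers, and barcodes that met that rule were kept out of the smooth muscle class. The choice of barcodes thus bears on its level there, and the smooth muscle cells were 22 barcodes with 58454 UMIs.

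A run of olfactory receptor genes was seen in pericyte-rule barcodes and was singled out after its values were seen. The 11 genes from Olfr550 to Olfr78 in both tables lie within 188 kb of chromosome 7 (chr7:102571442-102759471, mm10), where GENCODE M21 has 13. They held 130, 464 and 119 UMIs in pericyte-rule barcodes, a summed level of 73.6, 385 and 247 CPM, against 1.32, 2.01 and 2.44 CPM in all other barcodes. All 11 had counts in cells and in nucleus replicate 1, and 10 in nucleus replicate 2, where Olfr33 had none. Olfr551 was the highest in cells, at 24.9 CPM, with 62.3 and 62.4 CPM in nuclei, and Olfr552 the highest in nucleus replicate 1, at 67.3 CPM. Olfr78 and Olfr558, receptors also known outside the nose in vessels, stood at 4.53, 24.9 and 24.9 CPM and at 1.13, 11.6 and 20.8 CPM. The 133 other olfactory receptor genes of the tables summed to 529, 301 and 274 CPM in pericyte-rule barcodes and 473, 225 and 217 CPM in the others. Since neighbours on both strands moved together, and strand use in counting is not given, reads cannot be placed firmly in 1 of the genes.

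**Figure D5:**
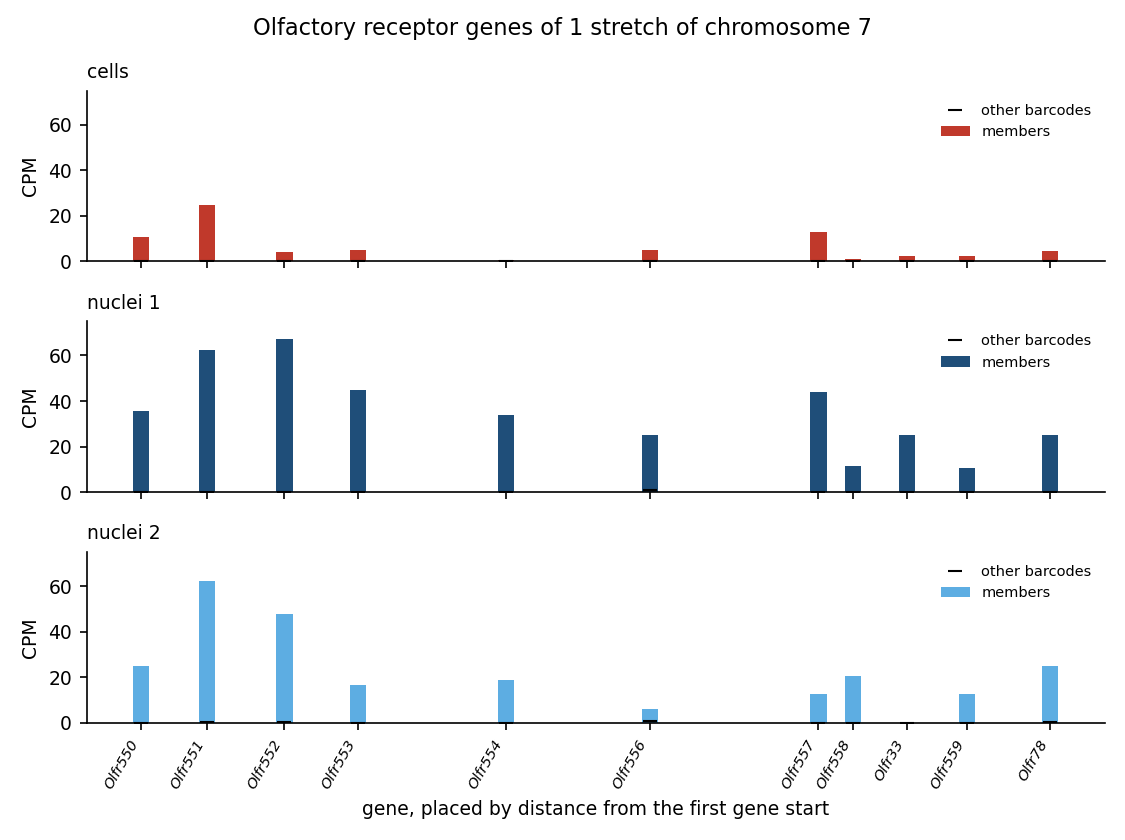
Level (y axis, CPM) of the 11 olfactory receptor genes in pericyte-rule barcodes (bars) and in all other barcodes (black dashes), placed by distance of each gene start from the first over 188 kb (x axis), 1 panel per library. All genes have bars well above the dashes in nucleus replicate 1, Olfr33 has no count in nucleus replicate 2, and the cells have the lowest sum (73.6 CPM against 385 and 247).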

How the data were processed

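Lung of C57Bl/6J mice was measured in 1 cell and 2 nucleus libraries. The authors deposited UMI counts per gene and barcode, in 1 table of cells and 1 of nuclei whose column names mark the library, per the file headers. The submitters' processing notes name STAR 2.5.3a and mm10. The counting program, strand setting and use of intronic reads: not given in the sources used here. Barcodes had been filtered before deposit, with at most 2499, 2499 and 2999 genes in cells and nucleus replicates 1 and 2.

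The 21507 genes in both tables were used, 1081 and 1133 held by 1 table only were left out, and no further barcode filter was applied. The rule, the gene lists and the tests were chosen with earlier results of these data known. Classes other than the pericyte rule were barcodes without it that had at least 5 of 10 markers of the class. Barcodes that met both the smooth muscle and the alveolar fibroblast rule were in neither of these classes. Counts of the chosen barcodes were summed per library and tested with edgeR 4.0.16 (R 4.3.3), by quasi-likelihood after TMM scaling and filterByExpr, with Benjamini-Hochberg adjustment over all genes tested, and by DESeq2 1.42.0 as an alternative. The comparison of classes was an interaction with the library as a block. SE is the absolute log2 fold divided by the square root of the F statistic of the edgeR test, a value worked back from that test. CPM are counts scaled to 1000000 UMIs over the summed barcodes. Shares carry exact binomial 95% intervals, which cover counting error only, and thinning drew 1000 UMIs per barcode and left out 8 and 253 shallower nuclei. Clusters came from scanpy 1.11.5 (Leiden, resolution 1, 2000 variable genes, 30 components, 20 neighbours). The edgeR script was tested on simulated data.

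Named were the rule genes, 10 pericyte markers, the 20 genes with the highest smallest fold over other barcodes, the 10 largest changes per direction past an adjusted p of 0.05 with 50 CPM in 1 group, and in each list the 4 largest changes and members with 100 CPM. Between classes the 6 largest differences per direction with counts in every sum were named. The rule genes, the markers of the class compared and clone-like symbols were left out. Markers of the remaining class were not, so Lmod1 of the smooth muscle list was named against fibroblasts and Itga8 of the fibroblast list against smooth muscle. The rule genes got no test. Of the 20 leading genes, 1 is not reported here.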

Additional observations from a re-analysis of the deposited data

Results flagged for a closer look

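These 23 genes had an effect of preparation, as the log2 fold of cells over nuclei, that differed between pericyte-rule barcodes and another mesenchymal class in edgeR's interaction test, at an adjusted p under 0.05. Against the alveolar fibroblast rule, the fold was higher in pericyte-rule barcodes by 2.85 for Ighg2c, an immunoglobulin constant chain, 2.75 for Spon1, 2.61 for Pdgfra, 2.53 for Adamts9, 2.48 for Cdh11 and 2.47 for C7. Ighg2c stood at 225 CPM in pericyte-rule cells and 5.53 CPM in the endothelial-poor ones. Against fibroblasts it was lower, with differences of -4.30 for Lef1, -3.70 for Lmod1, -3.56 for Kifc3, -3.34 for Fam189a1, -3.34 for Cstdc2 and -3.31 for Aff2. Over endothelial-poor barcodes, Lef1, Lmod1, Fam189a1, Aff2 and Cdh11 kept an adjusted p under 0.05 (3.6e-12, 0.0077, 0.00020, 0.0023 and 0.043).

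Against the smooth muscle rule, which held 69 barcodes in all, the fold was higher by 5.44 for Dysf, 5.09 for Plekho1, 5.08 for Col19a1, 4.49 for Ncald, 4.30 for Itga8 and 4.20 for Ltbp1. Dysf and Plekho1 each stood at 17.1 CPM in smooth muscle cells, where 22 barcodes held 58454 UMIs. Plekho1 stood at 27.4 CPM in smooth muscle nuclei of replicate 2, where 10 barcodes held 36557 UMIs. These levels rest on very few counts. The fold was lower by the differences of -4.87 for Igfbp5, -3.46 for Pag1, -3.16 for Kcnip4, -2.79 for Dock10 and -2.78 for Csmd1. The smooth muscle nucleus libraries stood far apart for Kcnip4 (90.8 and 1231 CPM, with 1044 CPM in cells) and Csmd1 (1311 and 164 CPM). Pag1 and Dock10 stood at 54.7 and 109 CPM in the same 10 nuclei of replicate 2, which also rests on few counts. Igfbp5, an IGF-binding protein, stood at 13.0, 95.5 and 220.4 CPM in pericyte-rule cells and nucleus replicates 1 and 2, and at 633, 156 and 246 CPM in smooth muscle. Col19a1, Itga8 and Igfbp5 kept an adjusted p under 0.05 over endothelial-poor barcodes (0.00063, 0.033 and 7.5e-07). Itga8 is an alveolar fibroblast marker, so the choice of smooth muscle barcodes bears on it. The choice of fibroblast barcodes likewise bears on Lmod1, a smooth muscle marker.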

How the results depend on the processing

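The pericyte-rule share depended on the threshold and on depth. With at least 4 genes it was 5.47% of cells, and with at least 6 it was 3.82% of cells and 1.78% of nucleus replicate 2. After thinning it was 2.11% of cells and 3.54% and 1.64% of nuclei. The share with 3 or more other pericyte markers became 11.9% in cells and 9.80% and 5.37% in nuclei when thinned. Genes higher and lower in cells numbered 474 and 243 by DESeq2 and 772 and 334 in the endothelial-poor barcodes, a split added after the data were seen. Leaving out barcodes with 3 or more markers of any other lineage left 18 cells and 8 and 12 nuclei and gave 102 and 17 of 740 tested. With at least 4 rule genes 574 were lower. Scaling by RLE, a stricter rule, no filter and a fit over 3 classes otherwise kept these counts within 1.5 times.

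Against fibroblasts, genes higher and lower numbered 3 and 11 by DESeq2, 16 and 56 with at least 4 genes, 10 and 31 in the endothelial-poor barcodes and 0 and 0 without other lineages (edgeR, with 46 and 11 of 2287 at an unadjusted p under 0.05), and 37 were higher with no filter. Against smooth muscle they numbered 4 and 4 by DESeq2, 12 and 18 with no filter, 9 and 1 in the endothelial-poor barcodes and 0 and 1 without other lineages (edgeR, 38 and 26 unadjusted), 4 were higher with at least 4 genes, and 19 were lower by RLE. The cause of these changes was not tested.

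Among 116 values of named genes, 116 kept their call under RLE, 77 under DESeq2 (37 lost it) and 60 of 103 in the endothelial-poor barcodes (41 lost it). Without other lineages the log2 folds of Pcdh19, Col8a1, Ltbp2 and Myh11 and the difference for Kcnip4 changed sign to 0.13, 1.42, 1.31, 0.22 and 4.32, none past the test, whereas Col8a1, Myh11 and Kcnip4 had passed it. Ltbp2 and Mcam, not past the test in any setting that gives one, became 0.21 and 0.21 in the endothelial-poor barcodes, and Mcam 0.076 with no filter and 0.021 and 0.043 with at least 4 and at least 6 genes. Leaving out nucleus replicate 1 or 2 gave 0.46 and -0.65 for Ltbp2, 1.76 and -1.11 for Abcc9, and 0.18 and -0.27 for Mcam. Without replicate 1, of 930 genes lower in cells 914 of the 915 with a value kept their direction, as did 1681 of 1681 higher. Without replicate 2, 1685 of 1685 and 925 of 925 did. Leaving out a nucleus library leaves no spread between samples, so no calls were counted. No paired analysis was possible because the cells have 1 library and share 1 replicate number with the nuclei. Depth limits Kcnj8 and Rgs5, which rest on few counts in nuclei.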

Other observations

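The pericyte-rule barcodes of the 2 nucleus libraries stood far apart in some genes. Of 2371 genes with at least 100 CPM in either, 12 were at least 5-fold higher in replicate 1 and 12 in replicate 2, limits set after the data were seen. Fkbp5, a co-chaperone of the glucocorticoid receptor, stood at 456 and 24.9 CPM in pericyte-rule nuclei of replicates 1 and 2 and at 24.3 CPM in cells, with 487 and 44.4 CPM in alveolar fibroblast nuclei and 177 and 49.9 CPM in B-cell-rule nuclei. Zbtb16, a zinc finger factor, stood at 879 and 60.3 CPM and Per2, of the circadian clock, at 154 and 6.24 CPM. Arntl, the clock activator that runs in the opposite phase to Per2, stood at 14.9 and 195 CPM in pericyte-rule nuclei, 12.9 and 173 CPM in fibroblast nuclei, 109 and 123 CPM in B-cell-rule nuclei and 88.9 CPM in pericyte-rule cells. Sdk2, a sidekick adhesion protein, stood at 198 and 39.5 CPM and Wfdc8 at 240.0 and 45.7 CPM, with at most 17.8 and 0.825 CPM in fibroblast nuclei. With 1 library each these differences were not tested.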
